A study of Mus musculus with 16 samples.

Results

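The expression of 10 genes of vascular redox chemistry was followed in the aorta of mice with chronic kidney disease (CKD). They were 4 genes for subunits of NADPH oxidases (Nox4, Cybb, Cyba and Ncf1) and 6 genes for antioxidant enzymes (Hmox1, Nqo1, Sod2, Sod3, Gpx3 and Txnrd1), taken by symbol from the 54532 genes of the count and FPKM tables. Each symbol matched 1 row, and all 10 genes passed the filter on low counts in all 6 pairwise comparisons.

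Bulk RNA-Seq of whole aorta was deposited for 16 male C57BL/6J mice in 4 groups of 4, each library from a separate animal. In the 5/6 Nx mice, the poles of the left kidney were ligated and the right kidney was removed in a second operation, at 12 weeks of age, with 2 weeks of recovery before the diets. The 5/6 Nx-HPi-Lp mice received 2% phosphorus with 2.5% protein, the 5/6 Nx-HPi-Hp mice 2% phosphorus with 18% protein, and the 5/6 Nx-LPi-Lp mice 0.3% phosphorus with 2.5% protein, for 30 days. The Sham mice had the operations without ligation or removal and ate the HPi-Lp diet. Sham mice on the other diets and 5/6 Nx mice on low phosphorus with high protein were not among these libraries, so surgery can be compared on the HPi-Lp diet alone and diets in 5/6 Nx mice alone. All diets also contained the same amount of TBHQ, an antioxidant food additive known to induce Nqo1. The HPi-Lp diet after 5/6 Nx is the condition in which the study set out to produce medial artery calcification.

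NADPH oxidases pass electrons from NADPH across a membrane to oxygen. The phagocyte enzyme is built from the membrane pair Cybb (NOX2, gp91phox) and Cyba (p22phox) and is switched on by cytosolic subunits including Ncf1 (p47phox), whereas Nox4, the main oxidase of vascular smooth muscle, needs Cyba alone and releases mostly hydrogen peroxide. Superoxide dismutases turn superoxide into hydrogen peroxide in mitochondria (Sod2) or outside the cell (Sod3), which peroxidases such as the plasma selenoenzyme Gpx3 then reduce, while Hmox1, Nqo1 and Txnrd1 are classical targets of the transcription factor NRF2.

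Total counts ran from 13659525 to 57276915 per library, and only 5/6 Nx-HPi-Lp replicates 2 and 3 (57276915 and 46499243) were above 24204348. Mitochondrially encoded genes held 4.18% to 6.34% of counts in the Sham mice and 9.50% to 29.0% in the 5/6 Nx mice. All 5 smooth muscle markers (Acta2, Myh11, Tagln, Cnn1 and Lmod1) were detected in every library, as the tissue label requires, but their summed level in CPM (counts scaled to the size of the library) was 20158 to 24250 in Sham, 1786 to 4118 in 5/6 Nx-HPi-Lp, 5119 to 21282 in 5/6 Nx-HPi-Hp and 6568 to 15683 in 5/6 Nx-LPi-Lp aortas. Replicate 4 of the 5/6 Nx-HPi-Hp group stood apart from the other 3 of its group. It held the 21282 CPM of smooth muscle markers, the 9.50% of mitochondrial counts and the lowest adipocyte marker sum of the 5/6 Nx mice, 520 CPM, so the results that rest on it are given with and without it. In bulk tissue, fewer cells of a type and less RNA per cell cannot be told apart.

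Levels in single libraries are given as CPM after TMM scaling of all 16 libraries, in the order of replicates 1 to 4. A gene was called when the adjusted p of edgeR's quasi-likelihood test (Benjamini-Hochberg over all genes tested) was at most 0.05 and the log2 fold change was at least 1 in size. The 5/6 Nx-HPi-Lp group is common to 3 of the comparisons and the Sham group to 3, so those comparisons are not independent of each other.

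Against Sham, 4 of the 10 genes were higher in 5/6 Nx-HPi-Lp aortas (Hmox1, Ncf1, Gpx3 and Cybb) and 3 were lower (Nox4, Nqo1 and Sod3). Of the 16513 genes tested, 15.0% were called higher and 7.18% lower. The 2 groups did not overlap for 9 of the 10 genes, beside 43.0% of all genes. The median log2 fold change of the 10 genes was 0.75, beside -0.003 for all genes, and covers changes of both signs.

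**Figure D1:**
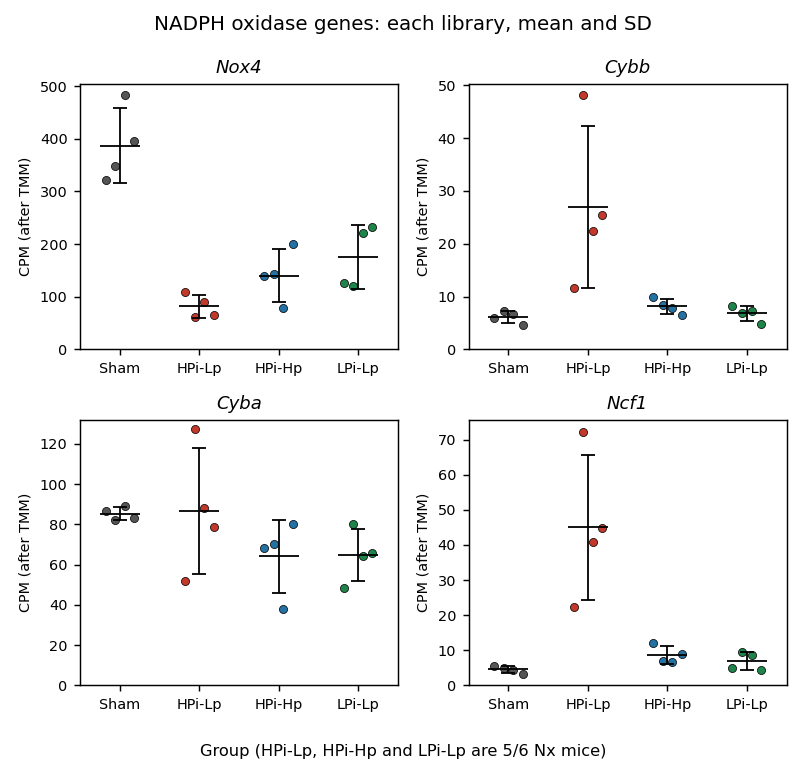
CPM of the 4 NADPH oxidase genes in each library (points, replicates 1 to 4 from left to right), with the group mean and SD (bars, n = 4) for Sham and the 3 diets of 5/6 Nx mice. Nox4 lay at 322 to 484 in Sham and at 62.2 to 233 in all 5/6 Nx libraries, while Cybb and Ncf1 were highest in the 5/6 Nx-HPi-Lp aortas.

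Nox4 (ENSMUSG00000030562, mm10 chr7:87246096-87398710, plus strand) encodes the constitutively active oxidase of the vessel wall. Its levels were 322, 348, 484 and 395 CPM in the Sham mice. They were 110, 62.2, 90.0 and 66.3 CPM in the 5/6 Nx-HPi-Lp aortas. Every 5/6 Nx-HPi-Lp library thus lay below every Sham library, a 4.54-fold fall (log2 fold change -2.18 ± 0.21, SE; edgeR adjusted p = 6.16e-05). The 5/6 Nx-HPi-Hp aortas had 139, 143, 78.1 and 200 CPM and the 5/6 Nx-LPi-Lp aortas 127, 120, 222 and 233 CPM, again with no library as high as the lowest Sham library. Nox4 was lower than in Sham in both, by 2.65-fold in 5/6 Nx-HPi-Hp (log2 -1.41 ± 0.25, SE; edgeR adjusted p = 0.00956) and by 2.08-fold in 5/6 Nx-LPi-Lp aortas (log2 -1.05 ± 0.24, SE; edgeR adjusted p = 0.0105). The last call stood close to the fold threshold and was lost without Sham replicate 3, 5/6 Nx-LPi-Lp replicate 1 or 5/6 Nx-LPi-Lp replicate 2 (log2 -0.93, -0.93 and -0.92).

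Among the diets of the 5/6 Nx mice, Nox4 was 2.13-fold lower on HPi-Lp than on LPi-Lp (log2 -1.09 ± 0.27, SE; edgeR adjusted p = 0.0227). This call was lost without any 1 of 5/6 Nx-HPi-Lp replicates 2 and 4 or 5/6 Nx-LPi-Lp replicates 3 and 4, with adjusted p of 0.0528, 0.0761, 0.0715 and 0.0576. Against HPi-Hp, the log2 difference was -0.76 (95% interval -1.39 to -0.13) with an adjusted p of 0.102, and the groups overlapped. Without 5/6 Nx-HPi-Hp replicate 4 it was log2 -0.55 (edgeR adjusted p = 0.183). The order of the mean levels was Sham, LPi-Lp, HPi-Hp and HPi-Lp, and of the neighbours only Sham and LPi-Lp differed by the test.

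Nox4 moved with the smooth muscle markers, all 5 of which were called lower in the 5/6 Nx-HPi-Lp aortas against Sham with a median log2 fold change of -2.84. Per 1000 CPM of the summed smooth muscle markers, Nox4 stood at 14.3 to 24.0 CPM in Sham, 23.7 to 36.9 in 5/6 Nx-HPi-Lp, 9.42 to 16.2 in 5/6 Nx-HPi-Hp and 14.4 to 19.6 in 5/6 Nx-LPi-Lp aortas. The medians were 17.0, 30.7, 15.6 and 17.1 in the same order, so that relative to these markers Nox4 was not lower in 5/6 Nx-HPi-Lp aortas than in Sham. The part of the smooth muscle content in the Nox4 result was not tested. The 250 bases before the start of Nox4 given by RefSeq (GRCm38.p6, chr7:87246399-87246648, plus strand) are shown because Nox4 was the member with the lowest fold change in every comparison with Sham. They hold 67.2% G and C, and neither motif searched below.

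Nox4: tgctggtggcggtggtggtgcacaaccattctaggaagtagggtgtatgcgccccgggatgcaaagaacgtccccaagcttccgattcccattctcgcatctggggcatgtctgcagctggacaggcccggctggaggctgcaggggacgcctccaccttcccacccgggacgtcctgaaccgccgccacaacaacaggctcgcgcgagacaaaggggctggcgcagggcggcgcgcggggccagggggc

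Cybb (ENSMUSG00000015340, chrX:9435252-9487771, minus strand), the catalytic subunit of the phagocyte oxidase, went the opposite way. Its levels were 5.90, 7.34, 6.77 and 4.59 CPM in Sham and 11.7, 48.1, 22.4 and 25.3 CPM in the 5/6 Nx-HPi-Lp aortas. The groups did not overlap, but the 5/6 Nx-HPi-Lp libraries spread over a wide range, with replicate 2 highest and replicate 1 lowest. The other 5/6 Nx groups stayed near the Sham range, with 9.90, 8.33, 7.87 and 6.56 CPM on HPi-Hp and 8.12, 6.97, 7.36 and 4.81 CPM on LPi-Lp.

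Cybb was 4.55-fold higher in 5/6 Nx-HPi-Lp than in Sham mice (log2 2.19 ± 0.37, SE; edgeR adjusted p = 0.00129). It was 3.99-fold higher than on LPi-Lp (log2 2.00 ± 0.39, SE; edgeR adjusted p = 0.00974) and 3.31-fold higher than on HPi-Hp (log2 1.73 ± 0.37, SE; edgeR adjusted p = 0.0182). The call against HPi-Hp was lost without 5/6 Nx-HPi-Hp replicate 2 (adjusted p = 0.0579). The differences of the other 2 diet groups from Sham were not called, at log2 0.48 (95% interval 0.01 to 0.96) for HPi-Hp and 0.24 (-0.25 to 0.73) for LPi-Lp.

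Ncf1 (ENSMUSG00000015950, chr5:134220053-134229625, minus strand), the organiser subunit that carries the cytosolic complex to Cybb, showed the larger change of the pair. It was counted at 5.51, 4.98, 4.42 and 3.40 CPM in Sham and at 22.3, 72.2, 40.8 and 44.8 CPM in the 5/6 Nx-HPi-Lp aortas, with replicates 2 and 1 again highest and lowest. The level was 12.2, 6.94, 6.75 and 8.91 CPM on HPi-Hp and 4.98, 9.54, 8.74 and 4.38 CPM on LPi-Lp, all below every 5/6 Nx-HPi-Lp library. Ncf1 was 10.2-fold higher in 5/6 Nx-HPi-Lp than in Sham mice (log2 3.35 ± 0.33, SE; edgeR adjusted p = 7.05e-05), 6.60-fold higher than on LPi-Lp (log2 2.72 ± 0.39, SE; adjusted p = 0.00306) and 5.19-fold higher than on HPi-Hp (log2 2.38 ± 0.34, SE; adjusted p = 0.00488). Every 5/6 Nx-HPi-Hp library also lay above every Sham library, with an edgeR adjusted p of 0.0168 and a log2 fold change of 0.9994, just short of the call. Ncf1 shares 408 of its 3663 exonic bases with exons of Gtf2ird2 on the opposite strand (GENCODE vM21), and whether the reads were counted by strand is not given in the sources used here. Gtf2ird2 stood at 10.01 to 13.01 CPM in Sham and 10.23 to 16.45 CPM in 5/6 Nx-HPi-Lp aortas.

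Cybb and Ncf1 moved with most macrophage markers, 7 of 8 of which were called higher in 5/6 Nx-HPi-Lp aortas against Sham. The other marker, Mertk, went the opposite way, with means of 92.8 CPM in Sham and 49.1 CPM in 5/6 Nx-HPi-Lp aortas. Mertk is part of the sums and ratios below, and ratios without it were not computed. The mean sum was 291 CPM in Sham and 1181 CPM in 5/6 Nx-HPi-Lp aortas, so Mertk was a larger part of it in Sham. The ratios depend on this. The summed level of the 8 markers was 244 to 339 CPM in Sham, 598 to 1937 in 5/6 Nx-HPi-Lp, 263 to 452 in 5/6 Nx-HPi-Hp and 220 to 317 in 5/6 Nx-LPi-Lp aortas. No macrophage marker was at 0 in any library. Per 1000 CPM of these markers, Cybb stood at 18.8 to 24.4 CPM in Sham and 18.9 to 25.2 CPM in 5/6 Nx-HPi-Lp aortas, so that its ratio to the macrophage markers overlapped almost completely. The ratio of Ncf1 was 13.9 to 18.2 CPM in Sham and 34.5 to 44.5 CPM in 5/6 Nx-HPi-Lp aortas, which did not overlap. It was 17.1 to 27.0 CPM on HPi-Hp and 19.9 to 32.7 CPM on LPi-Lp, the latter also above every Sham library. For Cybb the ratio was 18.2 to 29.9 CPM on HPi-Hp and 21.8 to 33.4 CPM on LPi-Lp. Neutrophils carry the same oxidase. Their 7 markers summed to 1.27 to 6.63 CPM in Sham and 18.2 to 68.2 CPM in 5/6 Nx-HPi-Lp aortas, and all 4 that could be tested were called higher, but Ly6g, one of their defining markers, was at 0 in every library of both groups. The part of either cell type in the Cybb and Ncf1 results was not tested.

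The upstream sequences of Cybb (chrX:9469325-9469574, minus strand) and Ncf1 (chr5:134229626-134229875, minus strand) are given because these genes for 2 subunits of 1 enzyme rose together. Patterns were searched on both strands of the 250 bases before each RefSeq start. They were the core of the antioxidant response element at which NRF2 binds, TGACNNNGC, and a wide pattern for the AP-1 site, TGANTCA. N stands for any base. The patterns can overlap each other, since both can begin with TGA. Cybb held 1 match to the AP-1 pattern, TGAATCA, at bases -139 to -133 counted back from the start and shown in capitals. Ncf1 held neither pattern. An AP-1 match was present in 6.75% and an antioxidant response element core in 10.2% of the 32851 promoters of the table. Of the 10 genes, 8 had an entry (Hmox1 and Sod3 had none).

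Cybb: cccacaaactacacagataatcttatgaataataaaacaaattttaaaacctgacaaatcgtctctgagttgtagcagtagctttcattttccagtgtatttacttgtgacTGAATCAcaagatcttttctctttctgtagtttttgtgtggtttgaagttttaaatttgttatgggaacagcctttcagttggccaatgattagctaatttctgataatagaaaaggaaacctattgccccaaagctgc
Ncf1: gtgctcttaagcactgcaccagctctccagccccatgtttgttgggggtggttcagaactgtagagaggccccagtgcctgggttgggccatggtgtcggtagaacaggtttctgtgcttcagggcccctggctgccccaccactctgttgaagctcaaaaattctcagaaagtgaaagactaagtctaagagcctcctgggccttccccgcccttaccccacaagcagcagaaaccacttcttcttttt

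Cyba (ENSMUSG00000006519, chr8:122424776-122432930, minus strand) encodes the membrane partner of both Cybb and Nox4. Its levels were 86.6, 82.0, 89.3 and 83.1 CPM in Sham and 52.1, 127, 87.9 and 78.9 CPM in 5/6 Nx-HPi-Lp aortas. Sham libraries were tightly grouped, whereas the 5/6 Nx-HPi-Lp libraries fell on both sides of them. The log2 fold change was 0.08 (95% interval -0.41 to 0.56; edgeR adjusted p = 0.804), an interval that stays within a 2-fold change of either sign. Cyba stood at 37.9 to 79.9 CPM on HPi-Hp and 48.4 to 80.1 CPM on LPi-Lp, below every Sham library in both, with log2 differences of -0.35 and -0.30 from Sham and adjusted p of 0.179 and 0.130. Cyba was not called in any comparison.

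The deposited FPKM divide by the merged length of all exons of a gene, 8471 bases for Nox4 and 1039 for Cyba. That length can differ from that of the transcripts expressed, so ranks between genes depend on it. In CPM, without this division, the Sham means were 387 for Nox4 and 85.2 for Cyba. By FPKM, Cyba was the highest of the 4 oxidase genes in all groups. Its mean was 78.6 ± 2.79 (SD, n = 4) in Sham and 84.6 ± 31.0 (SD, n = 4) in 5/6 Nx-HPi-Lp aortas. Nox4 followed in Sham at 43.8 ± 8.04 FPKM, with Ncf1 at 1.20 ± 0.23 and Cybb at 1.01 ± 0.19 FPKM (SD, n = 4). In the 5/6 Nx-HPi-Lp aortas, Ncf1 had a mean of 12.5 ± 5.80, Nox4 9.83 ± 2.69 and Cybb 4.70 ± 2.72 FPKM (SD, n = 4). The levels of Nox4 and Ncf1 therefore stood far apart in Sham and overlapped in 5/6 Nx-HPi-Lp aortas, at 7.54 to 13.3 FPKM for Nox4 and 6.23 to 20.2 FPKM for Ncf1. On the diets HPi-Hp and LPi-Lp, Nox4 (16.6 ± 5.49 and 20.9 ± 6.94 FPKM) stood above Ncf1 (2.39 ± 0.64 and 1.91 ± 0.73 FPKM) in each group (SD, n = 4).

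Of the wider NADPH oxidase family, taken as 16 genes, 12 could be tested against Sham in the 5/6 Nx-HPi-Lp aortas. Of these, 4 were higher (Cybb, Ncf1, Ncf4 and Rac2) and Nox4 alone was lower, 5 of 12 beside 22.2% of all genes called in either direction. The 4 that rose are components of the phagocyte oxidase, but other components of that enzyme were not called. Cyba is given above, Rac1 had means of 199 and 211 CPM (log2 0.14; edgeR adjusted p = 0.287) and the chaperone gene Cybc1 45.0 and 48.1 CPM (log2 0.15; edgeR adjusted p = 0.340) in Sham and 5/6 Nx-HPi-Lp aortas. The family median was 0.11 on the log2 scale, beside -0.003 for all genes. Ncf4 (p40phox), a cytosolic subunit, had mean levels of 2.25 ± 0.59 CPM in Sham and 18.9 ± 5.58 CPM in 5/6 Nx-HPi-Lp aortas (SD, n = 4; log2 3.12 ± 0.28, SE; edgeR adjusted p = 5.01e-05). Nox1, the other oxidase described in vascular muscle, was at 0 to 6 counts per library and was not tested. Within the 5/6 Nx mice, 3 of 10 tested family genes were higher on HPi-Lp than on HPi-Hp (Cybb, Ncf1 and Ncf4), with 0 lower, beside 8.12% of all genes called. Against LPi-Lp the same 4 genes as against Sham were higher and Nox4 was lower (10 tested), beside 11.9% of all genes. In the other diets against Sham, Ncf4 was higher (log2 1.26) and Nox4 lower on HPi-Hp (11 tested, beside 12.2% of all genes called), and Nox4 alone was called on LPi-Lp (12 tested, beside 10.9%).

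**Figure D2:**
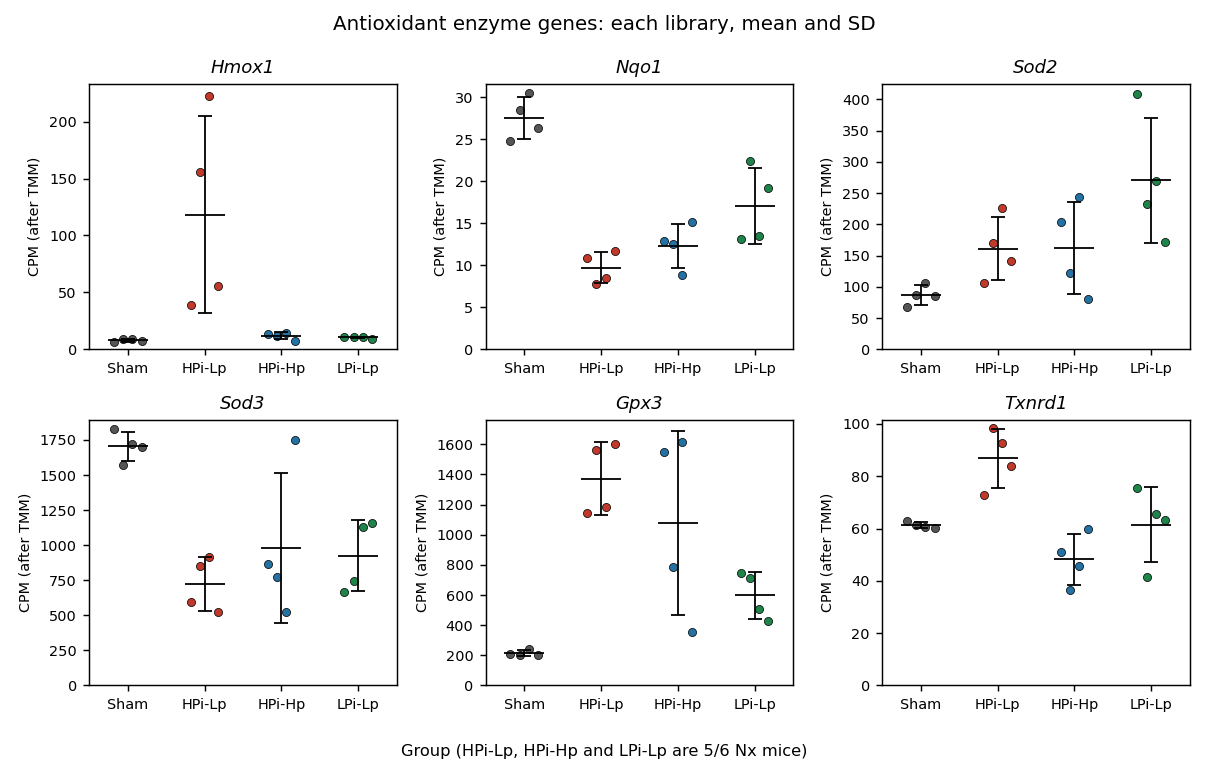
CPM of the 6 antioxidant enzyme genes in each library (points, replicates 1 to 4 from left to right), with the group mean and SD (bars, n = 4). Hmox1 was at 39.0 or more only in the 5/6 Nx-HPi-Lp aortas, Gpx3 was above Sham in all 5/6 Nx groups, and replicate 4 of HPi-Hp lay near Sham for Sod2, Sod3 and Gpx3.

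Hmox1 (ENSMUSG00000005413, chr8:75093621-75100589, plus strand), the inducible enzyme that breaks haem down to biliverdin, iron and carbon monoxide, had the largest fold change of the 10 genes in each comparison of the 5/6 Nx-HPi-Lp aortas. Its levels were 6.17, 9.44, 9.02 and 7.23 CPM in Sham. They were 39.0, 155, 222 and 55.9 CPM in 5/6 Nx-HPi-Lp aortas. Even the lowest of these libraries exceeded all 12 libraries of the other groups, although the 4 differed among themselves more than those of any other group. Replicates 2 and 3, the highest, were also the libraries with the most counts. The part of sequencing depth in this spread was not tested. On HPi-Hp the levels were 13.7, 12.1, 14.7 and 7.71 CPM, and on LPi-Lp 10.9, 11.1, 10.6 and 9.24 CPM.

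Hmox1 was 15.4-fold higher in 5/6 Nx-HPi-Lp than in Sham mice (log2 3.94 ± 0.53, SE; edgeR adjusted p = 0.000343). It was 11.4-fold higher than on LPi-Lp (log2 3.51 ± 0.52, SE; edgeR adjusted p = 0.00342) and 9.82-fold higher than on HPi-Hp (log2 3.30 ± 0.53, SE; edgeR adjusted p = 0.00617). The other diets differed from Sham by log2 0.67 (95% interval 0.14 to 1.21; adjusted p = 0.0542) on HPi-Hp and 0.49 (0.11 to 0.86; adjusted p = 0.0521) on LPi-Lp, and were not called. Macrophages that take up haem express Hmox1 strongly. Per 1000 CPM of summed macrophage markers, Hmox1 stood at 20.3 to 32.5 CPM in Sham, 55.5 to 188 in 5/6 Nx-HPi-Lp, 21.4 to 55.8 in 5/6 Nx-HPi-Hp and 33.3 to 45.0 in 5/6 Nx-LPi-Lp aortas. These sums include Mertk, which was lower in 5/6 Nx-HPi-Lp aortas than in Sham. The part of macrophage content in the Hmox1 result was not tested.

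Nqo1 (ENSMUSG00000003849, chr8:107388225-107403206, minus strand), a quinone reductase induced through the same NRF2 elements, fell where Hmox1 rose. Its levels were 24.8, 28.5, 30.5 and 26.3 CPM in Sham and 10.8, 7.84, 8.55 and 11.7 CPM in 5/6 Nx-HPi-Lp aortas. No 5/6 Nx library of any diet reached the lowest Sham level, with 12.9, 12.5, 8.85 and 15.1 CPM on HPi-Hp and 13.2, 22.4, 13.5 and 19.2 CPM on LPi-Lp. Nqo1 was 2.74-fold lower in 5/6 Nx-HPi-Lp aortas (log2 -1.45 ± 0.16, SE; edgeR adjusted p = 0.000111) and 2.12-fold lower in 5/6 Nx-HPi-Hp aortas (log2 -1.09 ± 0.16, SE; edgeR adjusted p = 0.00899) than in Sham. Without 5/6 Nx-HPi-Hp replicate 3 the second value was log2 -0.97, short of the fold threshold. In 5/6 Nx-LPi-Lp aortas the log2 difference from Sham was -0.59 (95% interval -0.99 to -0.20; adjusted p = 0.0305), under the fold threshold. Between the diets, HPi-Lp and LPi-Lp libraries did not overlap (log2 -0.81, 95% interval -1.31 to -0.31; edgeR adjusted p = 0.0317), whereas HPi-Lp and HPi-Hp overlapped (log2 -0.34, 95% interval -0.85 to 0.18). Neither difference was called. Per 1000 CPM of smooth muscle markers, Nqo1 was 1.17 to 1.51 CPM in Sham and 2.25 to 6.54 CPM in 5/6 Nx-HPi-Lp aortas, and the part of muscle content in its fall was not tested.

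Txnrd1 (ENSMUSG00000020250, chr10:82833951-82897712, plus strand), the cytosolic thioredoxin reductase, is also an NRF2 target. It stood at 62.8, 61.4, 60.6 and 60.1 CPM in Sham, the smallest spread relative to its mean of the 10 genes in Sham, and at 72.7, 98.5, 92.5 and 83.9 CPM in 5/6 Nx-HPi-Lp aortas. All 5/6 Nx-HPi-Lp libraries exceeded all Sham libraries (log2 0.56, 95% interval 0.33 to 0.79; edgeR adjusted p = 0.00212), a difference that the test passed but the fold threshold did not. They also exceeded all libraries on HPi-Hp, which had 50.9, 36.5, 45.5 and 59.9 CPM (log2 0.86, 95% interval 0.48 to 1.24; edgeR adjusted p = 0.0141). On LPi-Lp the levels were 75.5, 41.6, 65.5 and 63.2 CPM, with a log2 difference of 0.50 (0.08 to 0.93; adjusted p = 0.0872) between HPi-Lp and LPi-Lp. Txnrd1 was called in no comparison.

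The upstream sequences of Nqo1 (chr8:107403206-107403455, minus strand) and of the second of 3 RefSeq starts of Txnrd1 (chr10:82858956-82859205, plus strand) are shown because these NRF2 targets went opposite ways in the 5/6 Nx-HPi-Lp aortas. The Txnrd1 window held the only antioxidant response element core found before the starts of the 8 genes, on the minus strand at bases -92 to -84 (capitals, GCTTTGTCA as read on the plus strand). No match says only that these letters are not in the window.

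Nqo1: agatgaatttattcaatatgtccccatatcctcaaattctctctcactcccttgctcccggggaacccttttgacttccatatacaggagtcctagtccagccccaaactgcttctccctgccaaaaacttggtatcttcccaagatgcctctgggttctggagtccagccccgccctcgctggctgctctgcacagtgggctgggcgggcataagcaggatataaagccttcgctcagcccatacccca
Txnrd1: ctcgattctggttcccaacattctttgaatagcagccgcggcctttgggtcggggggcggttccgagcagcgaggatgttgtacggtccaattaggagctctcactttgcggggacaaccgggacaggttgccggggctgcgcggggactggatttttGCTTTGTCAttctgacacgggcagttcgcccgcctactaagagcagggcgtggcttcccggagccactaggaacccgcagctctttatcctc

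The superoxide dismutases differed from each other. Sod2 (ENSMUSG00000006818, chr17:13006846-13040063, plus strand), the manganese enzyme of the mitochondrial matrix, was at 68.3, 86.3, 107 and 85.8 CPM in Sham. On LPi-Lp it was at 408, 232, 270 and 172 CPM. Every 5/6 Nx-LPi-Lp library lay above every Sham library, a 3.32-fold rise (log2 1.73 ± 0.25, SE; edgeR adjusted p = 0.00332). The levels were 107, 170, 227 and 141 CPM on HPi-Lp and 204, 122, 243 and 81.2 CPM on HPi-Hp. Both stood just under the fold threshold against Sham, with log2 0.94 (95% interval 0.46 to 1.43; edgeR adjusted p = 0.00619) on HPi-Lp and 0.99 (0.28 to 1.69; edgeR adjusted p = 0.0396) on HPi-Hp.

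For Sod2, 1 library decided which side of the threshold these values fell on. Without Sham replicate 3, 5/6 Nx-HPi-Lp replicate 1 or 5/6 Nx-HPi-Lp replicate 4, the HPi-Lp value was log2 1.03, 1.11 or 1.02 and was called. Without 5/6 Nx-HPi-Hp replicate 4 the HPi-Hp value was log2 1.21 (adjusted p = 0.00247). Sod2 had its highest mean on LPi-Lp, but the log2 difference of HPi-Lp from LPi-Lp, -0.75 (95% interval -1.42 to -0.07), had an adjusted p of 0.107, and that of HPi-Lp from HPi-Hp was -0.01 (-0.78 to 0.76). Without 5/6 Nx-HPi-Hp replicate 4 the difference of HPi-Lp from HPi-Hp was log2 -0.24. The share of mitochondrially encoded counts was also higher in the 5/6 Nx mice, at 14.2% to 21.1% on LPi-Lp and 19.3% to 27.1% on HPi-Lp. The brown fat markers Ucp1 and Cidea summed to 271 to 581 CPM in Sham and 982 to 4060 CPM on LPi-Lp. Their sums were 469 to 1585 CPM on HPi-Lp and 671 to 2161 CPM on HPi-Hp. Both markers were called higher than in Sham on LPi-Lp and on HPi-Hp, and 1 of the 2 on HPi-Lp. The part of mitochondrial share or brown fat in the Sod2 result was not tested.

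Sod3 (ENSMUSG00000072941, chr5:52363791-52371418, plus strand), the copper and zinc enzyme secreted into the vessel wall, had the highest FPKM of the 10 genes in Sham, with a mean of 437 ± 25.9 (SD, n = 4). Its levels were 1825, 1574, 1718 and 1698 CPM in Sham and 597, 853, 919 and 525 CPM in 5/6 Nx-HPi-Lp aortas. The groups did not overlap, and Sod3 was 2.27-fold lower (log2 -1.18 ± 0.18, SE; edgeR adjusted p = 0.000764). On LPi-Lp the levels were 668, 748, 1132 and 1156 CPM, below all Sham libraries (log2 -0.79, 95% interval -1.22 to -0.36; edgeR adjusted p = 0.0140) but under the fold threshold. On HPi-Hp, 3 libraries had 868, 770 and 527 CPM and replicate 4 had 1752 CPM, within the Sham range. The log2 difference from Sham was -0.74 (-1.44 to -0.05; adjusted p = 0.0920) with that replicate and -1.16 (edgeR adjusted p = 0.00118) without it.

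The differences of Sod3 among the diets were small beside their error, with log2 -0.42 (95% interval -1.21 to 0.37) for HPi-Lp against HPi-Hp and -0.35 (-0.93 to 0.23) against LPi-Lp. Without 5/6 Nx-HPi-Hp replicate 4 the difference of HPi-Lp from HPi-Hp was log2 -0.0014. Per 1000 CPM of smooth muscle markers, Sod3 stood at 64.9 to 86.0 CPM in Sham, 145 to 477 in 5/6 Nx-HPi-Lp, 82.3 to 103 in 5/6 Nx-HPi-Hp and 73.7 to 102 in 5/6 Nx-LPi-Lp aortas. On this scale its ratio was higher on HPi-Lp than in Sham in every library. The part of muscle content in its fall was not tested.

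Gpx3 (ENSMUSG00000018339, chr11:54902453-54910377, plus strand), the glutathione peroxidase secreted into plasma, was the only one of the 10 genes called higher than in Sham on every diet. Its levels were 206, 200, 244 and 203 CPM in Sham. They were 1142, 1560, 1183 and 1603 CPM in 5/6 Nx-HPi-Lp aortas, 6.66-fold higher with no overlap (log2 2.74 ± 0.15, SE; edgeR adjusted p = 1.22e-05). On HPi-Hp, 3 libraries had 1551, 787 and 1617 CPM and replicate 4 had 355 CPM, all above Sham (5.35-fold; log2 2.42 ± 0.42, SE; edgeR adjusted p = 0.00940). Without replicate 4 the log2 value was 2.71. On LPi-Lp the levels were 747, 710, 509 and 428 CPM (2.99-fold; log2 1.58 ± 0.19, SE; edgeR adjusted p = 0.00263). All libraries on HPi-Lp exceeded all those on LPi-Lp, a 2.30-fold difference (log2 1.20 ± 0.23, SE; edgeR adjusted p = 0.00885). Against HPi-Hp the difference was log2 0.35 (95% interval -0.59 to 1.29), an interval that spans the fold threshold. Without 5/6 Nx-HPi-Hp replicate 4 this difference was log2 0.055.

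With these changes Gpx3, at a mean of 768 ± 136 FPKM (SD, n = 4), stood above Sod3 at 196 ± 51.7 FPKM (SD, n = 4) in the 5/6 Nx-HPi-Lp aortas, whereas in Sham it stood below, at 113 ± 10.6 against 437 ± 25.9 FPKM (SD, n = 4). Fat around the aorta is another source of Gpx3, and 4 of 5 adipocyte markers were called higher in 5/6 Nx-HPi-Lp aortas. Their summed level was 201 to 550 CPM in Sham, 1385 to 2269 in 5/6 Nx-HPi-Lp, 520 to 3372 in 5/6 Nx-HPi-Hp and 1162 to 3420 in 5/6 Nx-LPi-Lp aortas, and all 5 markers were above 0 in every library. Per 1000 CPM of these markers, Gpx3 stood at 444 to 1027 CPM in Sham, 707 to 1118 in 5/6 Nx-HPi-Lp, 480 to 683 in 5/6 Nx-HPi-Hp and 218 to 538 in 5/6 Nx-LPi-Lp aortas. The ranges of Sham and 5/6 Nx-HPi-Lp overlapped on this scale. The part of fat content in the Gpx3 result was not tested.

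**Figure D3:**
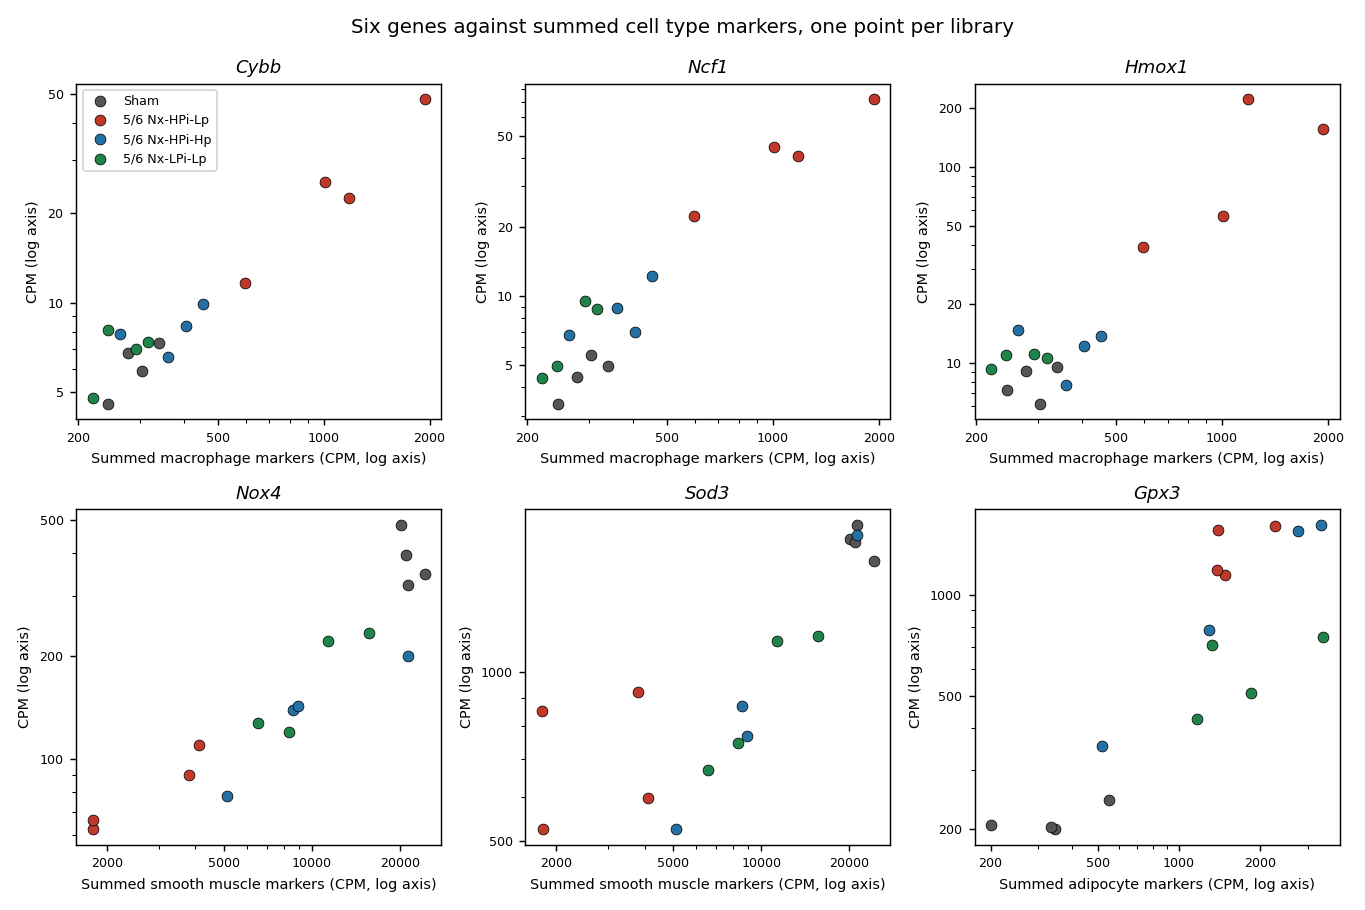
CPM of 6 genes (vertical, log axis) against the summed CPM of the macrophage, smooth muscle or adipocyte markers (horizontal, log axis) in the same library, 1 point per library, coloured by group. The 5/6 Nx-HPi-Lp libraries lie at the upper right for Cybb, Ncf1 and Hmox1 and at the lower left for Nox4, and replicate 4 of HPi-Hp lies at the Sham end for Sod3 (21282 CPM of smooth muscle markers).

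The comparisons among 5/6 Nx mice ask what phosphorus and protein add once kidney mass is reduced. On the same phosphorus, the low-protein mice (HPi-Lp) had 3 of the 10 genes higher than the high-protein mice (HPi-Hp), Hmox1, Ncf1 and Cybb, and 0 lower, beside 5.01% of 16198 genes called higher and 3.11% lower. The groups did not overlap for 4 of the 10 genes, beside 20.4% of all genes. On the same protein, high phosphorus (HPi-Lp) against low phosphorus (LPi-Lp) gave 4 genes higher, these 3 and Gpx3, and Nox4 lower, beside 7.90% of 16253 genes higher and 3.98% lower. Here 6 of the 10 genes did not overlap, beside 24.7% of all genes.

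Against Sham, the 5/6 Nx-HPi-Hp aortas had Gpx3 higher and Nox4 and Nqo1 lower, beside 9.41% of 15882 genes called higher and 2.75% lower (77.4% of calls higher, 52.2% with total-count scaling), and 6 of the 10 genes did not overlap, beside 33.8%. Without 5/6 Nx-HPi-Hp replicate 4, Nox4 (log2 -1.61), Nqo1 (log2 -1.18) and Gpx3 were called again, and Sod2 was also higher and Sod3 lower, 5 genes in all. The 5/6 Nx-LPi-Lp aortas had Gpx3 and Sod2 higher and Nox4 lower, beside 8.79% of 16071 genes called higher and 2.08% lower (80.8% of calls higher, 55.5% with total-count scaling), and 6 of the 10 genes did not overlap, beside 35.6%. These 2 groups also differ from Sham in diet. Between the HPi-Hp and the LPi-Lp diet in 5/6 Nx mice, which differ in both phosphorus and protein, none of the 10 genes was called higher or lower by edgeR, and 0% of 15850 genes were called in either direction. At an unadjusted p under 0.05, 0 of the 10 genes and 1420 of all genes differed, and DESeq2 called 88 genes, none of the 10. The log2 differences of the 10 genes ran from -0.74 (Sod2) to 0.84 (Gpx3), and 0 of the 10 genes did not overlap, beside 5.15% of all genes.

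**Figure D4:**
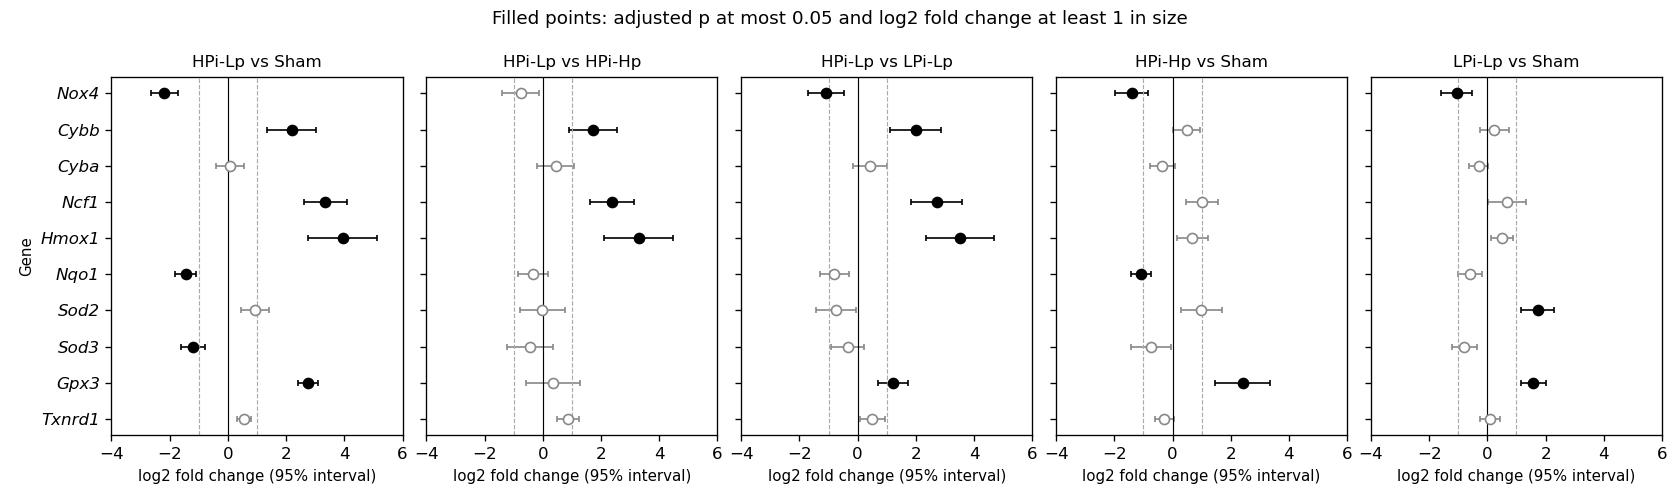
Log2 fold changes of the 10 genes with 95% intervals (horizontal bars) in 5 comparisons, the first named group over the second, from edgeR. Filled points were called, dashed lines mark log2 fold changes of -1 and 1, and the intervals of Hmox1, Ncf1 and Cybb lay above 0 in all 3 comparisons of the HPi-Lp mice, while Nox4 was below 0 throughout.

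Among 35 antioxidant enzyme genes, 34 could be tested against Sham in the 5/6 Nx-HPi-Lp aortas, and 2 were higher and 3 lower, with a median log2 fold change of 0.27. Beside 22.2% of all genes called, 5 of 34 is a smaller share, so most of these enzymes were not called. Gpx3 and Cat rose, and Sod3, Msrb3 and Prdx4 fell. Cat (catalase, which splits hydrogen peroxide in peroxisomes) went from 90.0 ± 14.6 CPM in Sham to 204 ± 65.2 CPM (SD, n = 4; log2 1.24 ± 0.21, SE; edgeR adjusted p = 0.00115). It was also higher than in Sham on HPi-Hp (log2 1.17 ± 0.37, SE; edgeR adjusted p = 0.0382) and LPi-Lp (log2 1.497 ± 0.25, SE; edgeR adjusted p = 0.00361). Msrb3, a methionine sulfoxide reductase that repairs oxidised proteins, went from 345 ± 31.9 to 97.3 ± 14.03 CPM (SD, n = 4; log2 -1.77 ± 0.13, SE; edgeR adjusted p = 1.97e-05), and was lower on HPi-Hp (log2 -1.35) and LPi-Lp (log2 -1.14) as well. In the 5/6 Nx-LPi-Lp aortas, 6 of 34 genes were higher and 1 lower than in Sham, with a median of 0.20, beside 8.79% of all genes called higher and 2.08% lower. The 6 were Sod2, Cat, Gpx3, Gpx4, Prdx3 and Txnrd2, named after their values were seen, of which Sod2, Prdx3 and Txnrd2 encode mitochondrial enzymes. Both brown fat markers, Ucp1 and Cidea, were called higher than in Sham on LPi-Lp and also on HPi-Hp, and 1 of the 2 on HPi-Lp. A link of brown fat to these enzymes was not tested. On HPi-Hp, Gpx3 and Cat were higher and Msrb3 and Prdx4 lower than in Sham, 4 of 34 tested beside 12.2% of all genes called. Glutathione reductase (Gsr) was higher on HPi-Lp than on HPi-Hp (log2 1.17) and LPi-Lp (log2 1.07). It was called beside Selenop in the first case and beside Gpx3 and Gpx7 in the second, with 0 lower in both. These were 2 and 3 of 34 genes, beside 5.01% and 7.90% of all genes called higher.

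Of 25 NRF2 target genes, all tested in the 5/6 Nx-HPi-Lp aortas against Sham, 4 were higher and 3 lower (median log2 0.37). Hmox1, Slc7a11, Ftl1 and Cat rose, and Nqo1, Gstm1 and Ephx1 fell. Beside 15.0% of all genes called higher and 7.18% lower, these shares were near the background. Slc7a11, the cystine importer that supplies glutathione synthesis, was low throughout, at 0.31 ± 0.15 CPM in Sham and 3.29 ± 2.82 CPM in 5/6 Nx-HPi-Lp aortas (SD, n = 4; log2 3.46 ± 0.71, SE; edgeR adjusted p = 0.00367). Gstm1, a glutathione transferase, went from 740 ± 56.2 to 159 ± 60.4 CPM (SD, n = 4; log2 -2.16 ± 0.26, SE; edgeR adjusted p = 0.000173). It was also lower on HPi-Lp than on HPi-Hp (log2 -1.48 ± 0.28, SE; edgeR adjusted p = 0.0125) and LPi-Lp (log2 -1.70 ± 0.26, SE; edgeR adjusted p = 0.00371). As one of a family of near-identical Gstm genes, its counts could be shared with its paralogs.

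On LPi-Lp, 6 of 24 tested targets were higher than in Sham and 0 lower (median log2 0.21), beside 8.79% of all genes called higher and 2.08% lower. Of 25 tested, 4 were higher and 6 lower on HPi-Lp than on LPi-Lp, beside 7.90% and 3.98% of all genes, and the median of -0.02 equalled that of all genes. Those higher on LPi-Lp than in Sham, named after their values were seen, were G6pdx, Pgd, Taldo1, Tkt, Me1 and Cat. The first 5 are enzymes of the pentose phosphate pathway or, for Me1, malic enzyme, and several of them supply the NADPH that both oxidases and reductases use. All 5 were also lower on HPi-Lp than on LPi-Lp, from log2 -1.06 (Taldo1) to -2.26 (Me1). Me1 and the pentose phosphate enzymes are abundant in fat, and all 5 adipocyte markers were called higher on LPi-Lp than in Sham. On HPi-Lp, 4 of 5 adipocyte markers were also called higher than in Sham, whereas none of the 5 enzymes was. Between HPi-Lp and LPi-Lp, 0 of 5 adipocyte markers were called (median log2 -0.34). A link of these enzymes to fat was not tested. On HPi-Hp, Cat, Tkt and Gsta3 were higher and Nqo1 lower than in Sham, of 24 tested. All genes were called higher in 9.41% and lower in 2.75%. HPi-Lp against HPi-Hp had Hmox1, Gsr and Slc7a11 higher and Gstm1 and Ephx1 lower, of 25 tested. Here 5.01% of all genes were called higher and 3.11% lower.

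Of 8 regulators of the NRF2 pathway, Mafk alone was called against Sham in the 5/6 Nx-HPi-Lp aortas, beside 22.2% of all genes. Mafk, a small Maf partner of NRF2, went from 95.5 ± 16.3 to 44.8 ± 6.94 CPM (SD, n = 4; log2 -1.04 ± 0.16, SE; edgeR adjusted p = 0.000627). It was lower on LPi-Lp too (log2 -1.08 ± 0.18, SE; edgeR adjusted p = 0.00352), the only one of the 8 called there, beside 10.9% of all genes. None of the 8 was called on HPi-Hp against Sham or on HPi-Lp against LPi-Lp, beside 12.2% and 11.9% of all genes. Bach1 (log2 1.01) and Maff (log2 1.05) were higher on HPi-Lp than on HPi-Hp, beside 8.12% of all genes called. The median of the regulators was -0.05 against Sham on HPi-Lp.

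Among 13 haem and iron genes, 7 were higher and 1 lower in the 5/6 Nx-HPi-Lp aortas than in Sham, with a median log2 fold change of 1.20, beside 22.2% of all genes called. Macrophages express Cd163, and 7 of 8 macrophage markers were higher in the same aortas (summed levels above). The 3 red cell markers (Hba-a1, Hbb-bs and Alas2) were lower (median log2 -2.44). All 3 were also called lower than in Sham on LPi-Lp (median log2 -3.12), and 0 of 3 were called on HPi-Hp. Their summed level was 339 to 3580.3 CPM in Sham and 165 to 342 CPM in 5/6 Nx-HPi-Lp aortas. The part of either cell type in the haem and iron genes was not tested. Hp (haptoglobin, the scavenger of free haemoglobin) rose most, from 86.0 ± 29.0 to 3374 ± 1263 CPM (SD, n = 4; log2 5.35 ± 0.39, SE; edgeR adjusted p = 2.01e-05), with intermediate levels of 565 ± 407 CPM on HPi-Hp and 395 ± 203 CPM on LPi-Lp (SD, n = 4). Hmox1, the haem scavenger receptor gene Cd163 (log2 2.56), haemopexin (Hpx, log2 2.14), the iron exporter Slc40a1 (log2 1.59), Ftl1 (log2 1.24) and Alas1 (log2 1.20) were the other 6. Slc48a1, a haem transporter, was lower, from 293 ± 19.7 to 129 ± 3.04 CPM (SD, n = 4; log2 -1.13 ± 0.09, SE; edgeR adjusted p = 3.12e-05). On HPi-Hp 4 of 13 were higher than in Sham (Hp, Alas1, Slc40a1 and Tfrc), beside 9.41% of all genes. On LPi-Lp 2 of 13 were higher (Hp and Alas1), beside 8.79% of all genes, with 0 lower in both groups. Hmox1, Cd163 and Hp were higher on HPi-Lp than on either other diet, and Hpx than on LPi-Lp. These were 3 of 13 genes against HPi-Hp and 4 of 13 against LPi-Lp, beside 5.01% and 7.90% of all genes.

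Other enzymes that make oxidants or nitric oxide, 11 of 12 of which could be tested, had 4 higher and 0 lower in the 5/6 Nx-HPi-Lp aortas against Sham, with a median of log2 0.92, beside 15.0% of all genes called higher and 7.18% lower. Leukocytes express several of these genes, and 7 of 8 macrophage and 4 of 4 tested neutrophil markers were higher in the same aortas. Their part in these values was not tested. Ptgs2 (cyclooxygenase-2) went from 5.70 ± 2.20 to 48.9 ± 24.7 CPM (SD, n = 4; log2 3.16 ± 0.38, SE; edgeR adjusted p = 0.000198) and was higher than on both other diets. Nos2, the inducible nitric oxide synthase, was low, at 0.71 ± 0.30 CPM in Sham and 3.70 ± 1.80 CPM in 5/6 Nx-HPi-Lp aortas (SD, n = 4; log2 2.44 ± 0.48, SE; edgeR adjusted p = 0.00289). It was likewise higher than in Sham on HPi-Hp (log2 1.93) and LPi-Lp (log2 2.24). Xanthine dehydrogenase (Xdh, log2 2.13) and 5-lipoxygenase (Alox5, log2 1.61) were the other 2. Ptgs2 and Xdh were higher on HPi-Lp than on either other diet, with Alox15 against HPi-Hp and Alox5 against LPi-Lp. These were 3 of 11 tested in each case, beside 5.01% and 7.90% of all genes called higher. Genes of these lists other than the 2 highest and 2 lowest called against Sham were named after their values were seen.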

How the data were processed

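Aortic poly(A) RNA of 16 mice was sequenced, 4 per group. Per the study's methods, read cleaning and HISAT2 alignment (mm10) preceded counting with featureCounts 1.5.0-p3, and the authors deposited raw counts for 54532 genes. The deposited FPKM were made by the authors from these counts, with library totals scaled by median-ratio size factors (checked against the counts). Counting options, strand setting and annotation release are not given in the sources used here.

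From the counts, each pair of groups (8 libraries) was fitted with edgeR 4.0.16 (R 4.3.3; filterByExpr, TMM, quasi-likelihood F test, Benjamini-Hochberg over all genes tested). Calls needed an adjusted p of at most 0.05 and a log2 fold change of at least 1 in size. SEs are the log2 fold change over the root of F, and 95% intervals use the fit's degrees of freedom. Intervals cover the spread between animals. The scripts were tested on simulated data. Alternatives used DESeq2 1.42.0, limma 3.58.1 on log2(FPKM + 1) or log2(FPKM + 0.1) with genes whose mean FPKM over the 8 libraries exceeded 0.5, other scalings and filters, all 16 libraries, a replicate block, no mitochondrially encoded genes, no fold threshold and each library left out. From each wider gene list, the 2 highest and 2 lowest called genes in 5/6 Nx-HPi-Lp against Sham averaging 50 or more counts in either group were named. Of the gene and marker lists, 2 genes are not reported here. The 10 genes, lists and tests were chosen with earlier results of these data known. Positions of the 10 genes are those of the count table and match GENCODE vM21. Upstream sequences are from RefSeq (GRCm38.p6). No replicate pair of a group agreed within sampling noise.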

Additional observations from a re-analysis of the deposited data

Results flagged for a closer look

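Among the 40 sets of 4 libraries (10 genes in 4 groups), 1 library stood apart from the rest of its group by Dixon's test, which flags about 1 in 20 sets by chance. Gpx3 was at 244 CPM in Sham replicate 3 and at 200 to 206 CPM in the other Sham libraries, a gap of 0.858 of the group's range. That library also had the highest adipocyte marker sum of the Sham mice, 550 CPM beside 201 to 348 CPM. Its part in the value was not tested.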

How the results depend on the processing

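Of 900 re-computed values of the 10 genes in 5 comparisons, 860 kept their direction and their side of the thresholds, 12 lost a call, 13 gained one and 15 changed sign. The values that changed sign were uncalled in every fit. Cyba (HPi-Lp against Sham) was -0.063 with total-count scaling and -0.16 to 0.27 with a library left out. Sod2 (HPi-Lp against HPi-Hp) was 0.043 with total-count scaling, 0.056 with limma on FPKM + 1, 0.065 with FPKM + 0.1, 0.0041 with all 16 libraries, 0.069 with the replicate block, 0.013 without mitochondrially encoded genes and -0.24 to 0.25 with a library left out. On LPi-Lp against Sham, total-count scaling gave -0.0054 for Cybb and -0.15 for Txnrd1 (-0.023 to 0.23 with a library left out). That scaling put the median of all genes against Sham at -0.14 to -0.22.

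The count of called genes among the 10 rose from 3 to 5 without a fold threshold on HPi-Hp and on LPi-Lp against Sham. With libraries left out it ran from 7 to 8 (HPi-Lp against Sham), 2 to 3 (HPi-Hp), 4 to 5 (LPi-Lp), 3 to 5 (HPi-Hp against Sham, 5 without HPi-Hp replicate 4), 2 to 3 (LPi-Lp against Sham) and stayed 0 between HPi-Hp and LPi-Lp. Total-count scaling called Sod3 on LPi-Lp against Sham (-1.02), RLE scaling, DESeq2 and a minimum of 10 counts called Ncf1 on HPi-Hp against Sham (1.01), as did 4 fits with a library left out, and limma on FPKM + 1 lost Nox4 on HPi-Lp against LPi-Lp (-0.99).

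Replicate numbers did not pair the animals: same-numbered libraries correlated at -0.20 to 0.41, and 6 of 24 matched their own number best. With the number as a block, 7, 2, 4, 3, 3 and 0 of the 10 genes were called in the 6 comparisons, Cybb against HPi-Hp having an adjusted p of 0.0750 and Nox4 against LPi-Lp 0.0527. The block left 371 of 1315 genes called against HPi-Hp and 1271 of 1931 against LPi-Lp, and called 10 between HPi-Hp and LPi-Lp, where no count filter gave 12 and leaving out LPi-Lp replicate 2 gave 1.

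Over all genes, limma on FPKM + 1 called 2057 of 3666, 783 of 1315, 1068 of 1931, 878 of 1932 and 870 of 1748 genes, and no fold threshold 7089, 2113, 3262, 4990 and 5115. HPi-Lp against HPi-Hp gave 2011 with all 16 libraries, 638 without HPi-Lp replicate 4 and 682 without HPi-Hp replicate 2. HPi-Lp against LPi-Lp gave 1278 without HPi-Lp replicate 4. HPi-Hp against Sham gave 1091 without Sham replicate 2 and 3161 without HPi-Hp replicate 4. The cause of these differences was not tested.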
